A study of Mus musculus with 20 samples.

Results

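The chemokine receptors that monocytes and T cells use to leave and re-enter the blood were followed here in whole blood of mice after irradiation. The set has 8 of the 31093 gene names on the array, *Ccr1*, *Ccr2*, *Ccr4*, *Ccr9*, *Cx3cr1*, *Cxcr3*, *Cxcr4* and *Cxcr6*. The array's design names 12 of its 39429 non-control probes for these genes, and all 12 were taken. Each of 20 blood samples was read on 1 Agilent array with 1 dye, and the samples form 4 groups of 5. The groups were C57BL/6 mice labelled WT and mice labelled Il10-/- (B6.129P2-Il10tm1Cgn/J, which carry a targeted *Il10* gene in every cell and serve as a model of inflammatory bowel disease), each sham-irradiated (0 Gy) or exposed over the whole body to 7 Gy of X-rays. All were male littermates of matings between heterozygous mice, 8 to 10 weeks old, and blood was taken 24 h after exposure by cardiac puncture. The labels do not say whether each array is a different mouse, so the p-values measure the spread between these arrays.

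Chemokine receptors are membrane receptors that read gradients of small secreted chemokines and steer the cell that carries them. CCR2, the receptor for CCL2, is known for releasing inflammatory monocytes from the bone marrow, and CX3CR1, the receptor for fractalkine, marks monocytes, most strongly the patrolling kind, and some NK and T cells. CXCR4 binds CXCL12 and holds many kinds of leukocyte in the marrow. CXCR3 and CXCR6 sit on effector T cells and NK cells, CCR4 on helper and regulatory T cells that enter the skin, CCR9 on T cells bound for the small intestine and on plasmacytoid dendritic cells, and CCR1 on monocytes and neutrophils.

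The sequences of the repeated probes show how far the measurements of one receptor are independent. In the mouse build mm9, to which the array's positions refer, the *Cx3cr1* probes lie on the minus strand of chromosome 9 at chr9:119959018-119959077, chr9:119957811-119957870 and chr9:119957806-119957865. The pair of *Cxcr6* probes lies on the plus strand at chr9:123720709-123720768 and chr9:123720719-123720778. Each probe has 60 bases, of which the first 30 follow, from 5′ to 3′. Capitals mark bases that another probe of the same gene also covers.
Cx3cr1 A_52_P99810: caagaatgtcttcatgcattcactgactcc
Cx3cr1 A_55_P2007964: cgtgcCTAGAGTGTGTCTATCCCACTTGTA
Cx3cr1 A_55_P2054362: CTAGAGTGTGTCTATCCCACTTGTAATTCT
Cxcr6 A_55_P2165199: aatgtataaaACAGAGCTTAAGACTTTAAC
Cxcr6 A_55_P1962209: ACAGAGCTTAAGACTTTAACAAATACAAGA
The last 2 of the 3 *Cx3cr1* probes share 55 of their bases and the *Cxcr6* probes share 50, so each such pair reads nearly the same stretch of its transcript. The first *Cx3cr1* probe reads a separate stretch.

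As context, promoters are shown for *Cx3cr1*, *Cxcr4* and *Ccr2*, called lower after irradiation by the test given below, *Ccr2* in Il10-/- mice alone. They are the 250 bases before the gene start in RefSeq's annotation of GRCm38.p6, a build other than that of the probe positions, and all 8 genes were matched there by symbol. Capitals mark matches, on either strand, to a TATA box (TATAAA), a GC box (GGGCGG), the RUNX core TGTGGT, the PU.1 and Ets core GAGGAA or the T-box core AGGTGT.
Cx3cr1, minus strand, chr9:120068297-120068546: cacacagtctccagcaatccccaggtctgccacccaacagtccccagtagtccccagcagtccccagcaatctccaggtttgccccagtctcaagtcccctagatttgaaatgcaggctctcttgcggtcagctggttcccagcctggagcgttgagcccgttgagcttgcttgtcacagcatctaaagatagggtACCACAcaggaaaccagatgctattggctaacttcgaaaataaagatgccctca
Ccr2, plus strand, chr9:124101933-124102182: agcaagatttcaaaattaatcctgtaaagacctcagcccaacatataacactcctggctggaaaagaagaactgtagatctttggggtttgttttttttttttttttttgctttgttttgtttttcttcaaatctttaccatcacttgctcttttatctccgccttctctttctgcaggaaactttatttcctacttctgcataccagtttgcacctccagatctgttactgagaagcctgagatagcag
Cxcr4, minus strand, chr1:128592300-128592549: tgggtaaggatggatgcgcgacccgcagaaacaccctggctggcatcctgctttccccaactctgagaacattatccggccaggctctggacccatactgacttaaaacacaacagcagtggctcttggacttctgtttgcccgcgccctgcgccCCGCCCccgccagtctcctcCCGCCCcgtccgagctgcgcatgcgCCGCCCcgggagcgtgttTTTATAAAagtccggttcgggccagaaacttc
The *Cxcr4* promoter held 3 GC boxes and a TATA box that matches on both strands, with 61.2% G and C. The *Cx3cr1* promoter held 1 RUNX core, also held by *Ccr1*, *Cxcr3* and *Cxcr6*, and the *Ccr2* promoter, with 37.2% G and C, held none of the 5 motifs. Of 32851 RefSeq promoters of this length, 12.4% hold the TATA box letters, 32.7% the GC box, 14% the RUNX core, 23.3% the PU.1 and Ets core and 11.8% the T-box core. *Cx3cr1*, *Ccr2* and *Cxcr4* share none of these motifs with one another in this window.

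Levels are given as log2 signal relative to the array's median over all non-control probes, so that 0 is the level of the median probe, and levels of different probes cannot be set against each other. A feature was called when limma's moderated test gave p below 0.001 and, after Benjamini-Hochberg adjustment, a false discovery rate under 10% across 18587 features that passed the filters on background and variability. Of the 12 receptor probes, 11 passed these filters, and each of the 8 genes kept at least 1 probe. The second *Ccr9* probe, A_55_P2308239, was marked by the scanner software on 65% of the arrays, was well above background on none of the 20, and was not tested. Its levels ran from −3.10 to 1.13, and it was called in no comparison when the filter on marked probes was dropped.

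Several arrays stood apart. Over the 20 arrays, 29.9% to 57.8% of spots were well above background, least on replicate 5 of unirradiated WT mice. Repeated spots of a probe varied by an SD of 0.524 on that array and of 0.472 on replicate 3 of irradiated Il10-/- mice, against 0.0786 to 0.172 on the other 18. In every group replicates 1 and 2 were the closest pair, with a spread between them of 0.209 to 0.313 over probes, against 0.355 to 1.25 for the 36 other pairs. Their summed levels of liver transcripts were also nearly equal, for example 65675 and 64178 times the array median in irradiated WT mice, whose other arrays held 219 to 10552. Whether replicates 1 and 2 came from different mice was not tested. Each call of a receptor probe was therefore also made with the pair averaged as 1 array, while calls of other genes are given from all arrays only. Every group had 1 array on each of the 5 slides, and differences within slides are given for 1 probe of each called receptor gene, as a description. Where the groups do not overlap, all of these differences must have the same sign.

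The signal of the targeted gene was not lower in mice labelled Il10-/-. *Il10*, read by a probe at chr1:132920943-132921002 (mm9, plus strand), averaged −1.54 ± 0.45 (SD, n = 5) on the unirradiated arrays of mice labelled WT, against 2.75 ± 0.31 for Il10-/-. It was well above background on 5 of 5 arrays of each group labelled Il10-/- and on 0 of 5 of each WT group. Without irradiation the label Il10-/- went with a signal at least 7.12-fold higher. Where the targeted change lies relative to this probe was not analysed here, so the probe does not settle the genotype of any array. The genotypes are therefore named throughout as the labels give them.

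Exposure of WT mice to 7 Gy was followed by lower *Cx3cr1* and *Cxcr4*, while the receptors of effector T cells did not pass the test in either direction. All 3 *Cx3cr1* probes and the *Cxcr4* probe were called lower, and no receptor probe was called higher. These are 4 of 11 probes tested, where 2.32% of all features were called lower and 4.48% higher. With other scalings of the arrays the split of all calls moved from 832 higher and 431 lower to 705 and 693 with quantile normalization, and the 4 receptor calls remained under each scaling. The same 4 probes were those whose groups did not overlap with lower signal after 7 Gy, as for 4.26% of all features.

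*Cx3cr1* fell most among the 8 genes. On the brightest probe, A_55_P2007964, unirradiated WT arrays 1 to 5 gave 5.47, 5.15, 5.00, 3.07 and 3.32, and irradiated arrays gave 1.84, 1.86, 2.04, 2.25 and 2.56. Every irradiated array lay below every unirradiated one, although unirradiated replicates 4 and 5 stood well below the other 3. The difference was −2.29 (SE 0.49, 95% interval −3.33 to −1.25), a 4.90-fold fall with an adjusted p of 0.00628 in limma. Within slides it was −3.64 to −0.75. The overlapping probe A_55_P2054362 fell by 2.36 on the log2 scale with an adjusted p of 0.00376 in limma. On the separate probe A_52_P99810 the unirradiated arrays gave 2.64, 2.97, 2.69, 0.18 and 1.06 and the irradiated arrays −0.94, −1.74, −1.13, −0.49 and −0.10. None of the 5 irradiated arrays was well above background there, so the fall was at least 4.60-fold, with an adjusted p of 0.00357 in limma.

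*Cxcr4* was lower after 7 Gy in WT mice by a smaller margin. Unirradiated arrays gave 4.09, 4.34, 4.44, 3.91 and 3.03, and irradiated arrays 2.30, 2.31, 2.19, 2.78 and 2.58. The groups did not overlap, the differences within slides were −2.25 to −0.45, and the overall difference was −1.53 (SE 0.38, 95% interval −2.34 to −0.73), 2.89-fold, with an unadjusted p of 0.000926 and an adjusted p of 0.0141 in limma. This call rested just inside the threshold: it was lost in 9 of the 10 fits that left out 1 array, with adjusted p-values of up to 0.0419. With replicates 1 and 2 averaged, the call stayed for the *Cx3cr1* probe A_52_P99810 alone, and the overlapping *Cx3cr1* probes were at −2.0 and −2.15, with adjusted p-values in limma of 0.0406 and 0.0249, and *Cxcr4* at −1.44, with 0.087.

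The remaining receptors of WT mice gave differences within the spread of the arrays. *Ccr2* was 4.40 ± 1.14 (SD, n = 5) at 0 Gy and 3.80 ± 0.47 at 7 Gy, a difference of −0.60 with an interval of −1.67 to 0.48. Its unirradiated replicates 1 to 3 lay at 5.19 to 5.20 while replicates 4 and 5 lay at 2.76 and 3.63. *Cxcr3* went from 4.75 ± 0.93 to 5.50 ± 0.68 and the brighter *Cxcr6* probe from 5.72 ± 1.02 to 6.03 ± 0.60, with intervals for the differences of −0.29 to 1.78 and −0.74 to 1.35. With quantile normalization that *Cxcr6* difference was −0.11. *Ccr4* differed by −0.64 and *Ccr9* by −0.70, with intervals of −1.57 to 0.29 and −2.15 to 0.74. *Ccr1* differed by 0.73, but was well above background on only 2 of all 20 arrays, both of unirradiated Il10-/- mice.

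**Figure D1:**
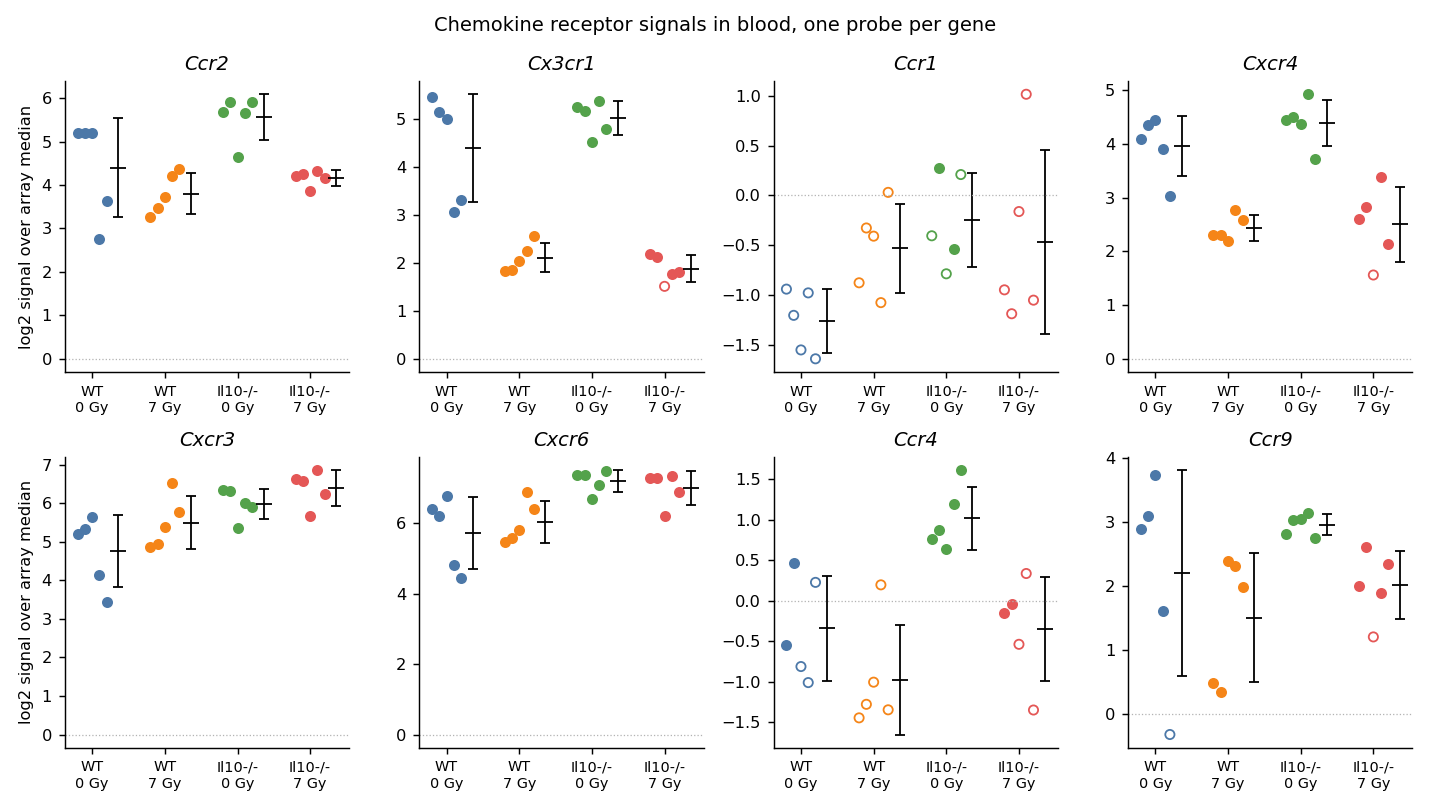
Signal of the brightest probe of each receptor on every array, as log2 relative to the array median; filled points were well above background, open points were not, and bars give the mean and SD of 5 arrays. The groups at 7 Gy lie below those at 0 Gy for *Cx3cr1* and *Cxcr4* in both genotypes. In Il10-/- mice they also do for *Ccr2*, *Ccr4* and *Ccr9*, of which *Ccr4* and *Ccr9* were not called.

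In mice labelled Il10-/-, *Cx3cr1* and *Cxcr4* fell as well, and *Ccr2* was called in addition. Here 5 of 11 probes from 3 genes were called lower and 0 higher, where 5.87% of all features were called lower and 3.29% higher. Scaling to 1 reference array moved the split of all calls from 611 higher and 1091 lower to 920 and 929, and the 5 receptor calls remained under each scaling. For 7 of the 11 probes the groups did not overlap with lower signal after 7 Gy, as for 10.9% of all features. Those 7 are the called probes, *Ccr4* and *Ccr9*.

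*Cx3cr1* probe A_55_P2007964 gave 5.26, 5.18, 4.54, 5.37 and 4.80 in unirradiated Il10-/- mice and 2.19, 2.13, 1.51, 1.77 and 1.81 after 7 Gy. The arrays of each group lay close together and the groups were far apart, by −3.14 (SE 0.24, 95% interval −3.67 to −2.62), or 8.84-fold, with an adjusted p of 1.06e-05 in limma. The other *Cx3cr1* probes differed by −3.43 and −3.55. The latter, A_52_P99810, was well above background on 1 of 5 irradiated arrays. A_55_P2054362 was well above background on 2 of 5, so that both differences are taken largely against background. Within slides A_55_P2007964 differed by −3.60 to −2.99.

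*Cxcr4* gave 4.45, 4.50, 4.36, 4.93 and 3.72 before and 2.60, 2.83, 1.56, 3.38 and 2.14 after irradiation of Il10-/- mice. The difference was −1.89 (SE 0.34, 95% interval −2.64 to −1.14), 3.71-fold, with an adjusted p of 0.00308 in limma. The groups did not overlap, and the differences within slides were −2.80 to −1.54. *Ccr2* gave 5.68, 5.91, 4.64, 5.66 and 5.91 before and 4.22, 4.26, 3.86, 4.32 and 4.17 after. Its difference was −1.39 (SE 0.27, 95% interval −1.98 to −0.81), 2.63-fold, with an adjusted p of 0.00428 in limma. The *Ccr2* groups did not overlap, and the differences within slides were −1.74 to −0.78. With replicates 1 and 2 averaged, the calls for *Cx3cr1* and *Cxcr4* stayed and that for *Ccr2* was lost, at a difference of −1.35 and an adjusted p of 0.0319.

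The T cell receptors of Il10-/- mice divided into a pair with lower values and a pair with little difference. *Ccr4*, bright enough to be well above background on 5 of 5 unirradiated arrays, gave 0.76, 0.88, 0.64, 1.20 and 1.62 before and −0.15, −0.03, −0.54, 0.34 and −1.35 after. After irradiation *Ccr4* was well above background on 2 of 5 arrays. Its groups did not overlap, but the difference of −1.36 (SE 0.32) did not pass the test, with an adjusted p of 0.0119 in limma. *Ccr9* went from 2.96 ± 0.17 (SD, n = 5) to 2.01 ± 0.54, a difference of −0.95 with an interval of −1.54 to −0.36 and an adjusted p of 0.027 in limma, also not called. *Cxcr3* was 5.98 ± 0.40 before and 6.39 ± 0.46 after, with an interval of −0.20 to 1.03, and was higher on 5 of 5 slides by 0.27 to 0.87, but was −0.23 without the arrays rich in liver transcripts. That fit kept only replicates 3 and 5 of the irradiated arrays, and replicate 3 had noisy repeated spots. *Cxcr6* was at 7.19 ± 0.31 and 6.99 ± 0.48 on its brighter probe, with an interval of −0.79 to 0.39. *Ccr1* differed by −0.22, from −1.11 to 0.68.

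**Figure D2:**
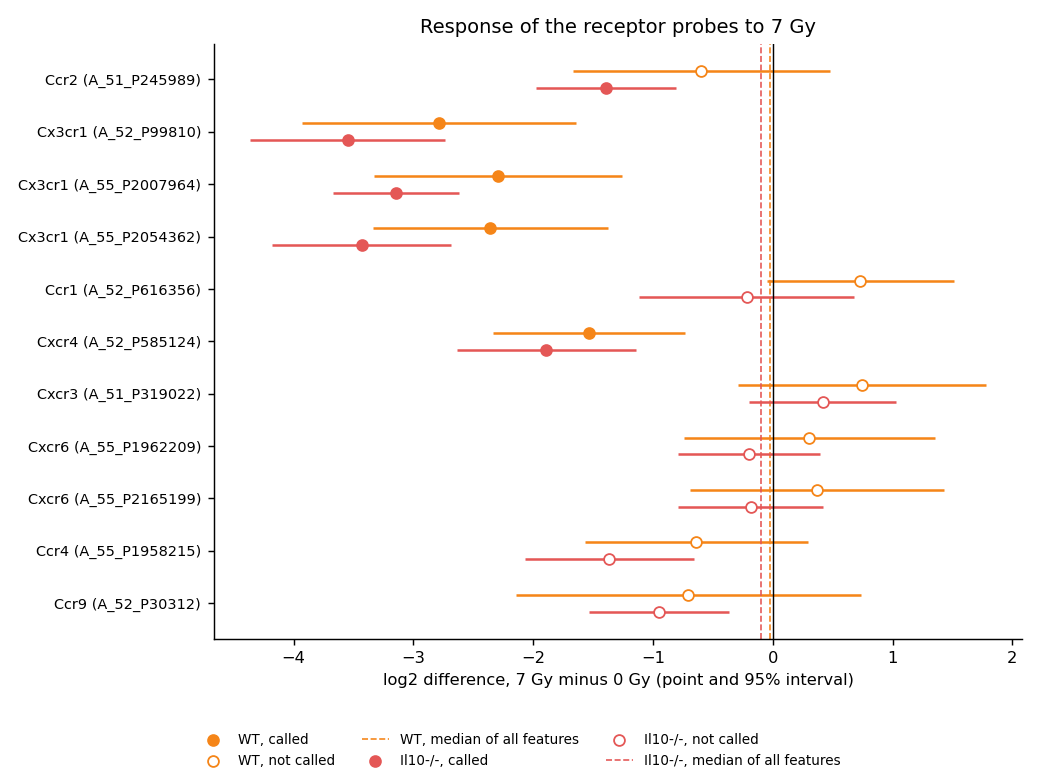
Difference between 7 Gy and 0 Gy on the log2 scale for the 11 receptor probes that were tested, with 95% intervals, in WT and Il10-/- mice; filled points were called, and broken lines give the median of all 18587 features. The *Cx3cr1* and *Cxcr4* intervals lie below 0 in both genotypes, and those of *Cxcr3* and *Cxcr6* include 0.

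The responses of the genotypes were compared directly, as an interaction over all 20 arrays in limma. None of the 11 receptor probes was called, none had an unadjusted p under 0.05, and 0% of all features were called, with 1301 of 18587 at an unadjusted p under 0.05. The differences were negative for all 11 probes with the array median as scale, where the median of all features was −0.20, but *Ccr9* was 0.01 with the 75th percentile and *Cxcr3* was 0.13 with quantile normalization. Without the 2 arrays with the noisiest repeated spots, 5 of the 11 were positive on the array-median scale, *Ccr9* at 0.59, *Cxcr3* at 0.18, *Cxcr4* at 0.11 and both *Cxcr6* probes at 0.01. The response of *Cx3cr1* probe A_55_P2007964 in Il10-/- minus that in WT mice was −0.85, with an interval of −2.01 to 0.30, and that of *Ccr2* was −0.80, with an interval of −2.02 to 0.43. The call for *Ccr2* in one genotype alone is therefore not shown to be a difference between them. *Cxcr4* responses differed by −0.36, with an interval of −1.37 to 0.65.

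Before irradiation, all 11 receptor probes had higher mean signal in Il10-/- than in WT mice, but none was called. The tests in limma gave 6 of 11 probes with an unadjusted p under 0.05 and a lowest adjusted p of 0.17, where 0.845% of all features were called and 2991 of 18587 had an unadjusted p under 0.05. The median of all features was itself 0.36 higher in Il10-/- mice with the array median as scale, and −0.07 with the 75th percentile. Relative to the array median the receptor probes were 0.43 to 1.52 higher. With quantile normalization *Cxcr4* was at −0.01 and the other 10 probes remained above 0.

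*Cxcr6* showed the largest of these baseline differences. Probe A_55_P2165199 gave 5.59, 5.54, 5.87, 4.20 and 3.52 in WT and 6.59, 6.69, 5.94, 6.49 and 6.63 in Il10-/- mice. The groups did not overlap, and the difference was 1.52 (SE 0.46, 95% interval 0.57 to 2.48) with an adjusted p of 0.177 in limma. *Ccr4* differed by 1.35, also with no overlap between the groups, but was well above background on only 2 of 5 WT arrays. The *Ccr1* groups did not overlap either, but *Ccr1* was well above background on 0 of 5 WT and 2 of 5 Il10-/- arrays, so no size is given for it. With *Ccr1* this makes 3 of 11 probes, where 3.98% of all features had higher values with no overlap. *Ccr2* differed by 1.16, *Cxcr3* by 1.22 and *Ccr9* by 0.76, with overlapping groups. The baseline values of WT replicates 4 and 5 were low for *Ccr2*, *Ccr9*, *Cx3cr1*, *Cxcr3* and *Cxcr6* alike, and replicate 5 is the array with the noisiest spots. Without replicate 5 the *Ccr9* difference was 0.12, the *Cxcr4* difference 0.20, and the *Cx3cr1* differences 0.28 to 0.45.

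After irradiation as well, no receptor probe was called between irradiated Il10-/- and irradiated WT mice in limma, 3 of 11 had an unadjusted p under 0.05, and 1 of 18587 features (0.00538%) was called, with 2066 at an unadjusted p under 0.05. *Cxcr6* and *Cxcr3* had these 3 probes, with differences of 0.97 for both *Cxcr6* probes and 0.90 for *Cxcr3*, higher in Il10-/- mice on 5 of 5 slides, and adjusted p-values of 0.391 to 0.407. Without 6 irradiated arrays that were rich in liver transcripts, *Cxcr3* was −0.19 and the *Cxcr6* probes −0.10 and −0.14. These values rest on replicates 4 and 5 of WT and replicates 3 and 5 of Il10-/- mice, and that replicate 3 had noisy repeated spots. *Cxcr4* differed by 0.07 and the *Cx3cr1* probes by −0.57 to −0.10. The intervals ran from −0.64 to 0.78 for *Cxcr4* and reached −1.27 for *Cx3cr1*. *Cxcr4* was −0.02 with the 75th percentile as scale and −0.83 without the arrays rich in liver transcripts.

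**Figure D3:**
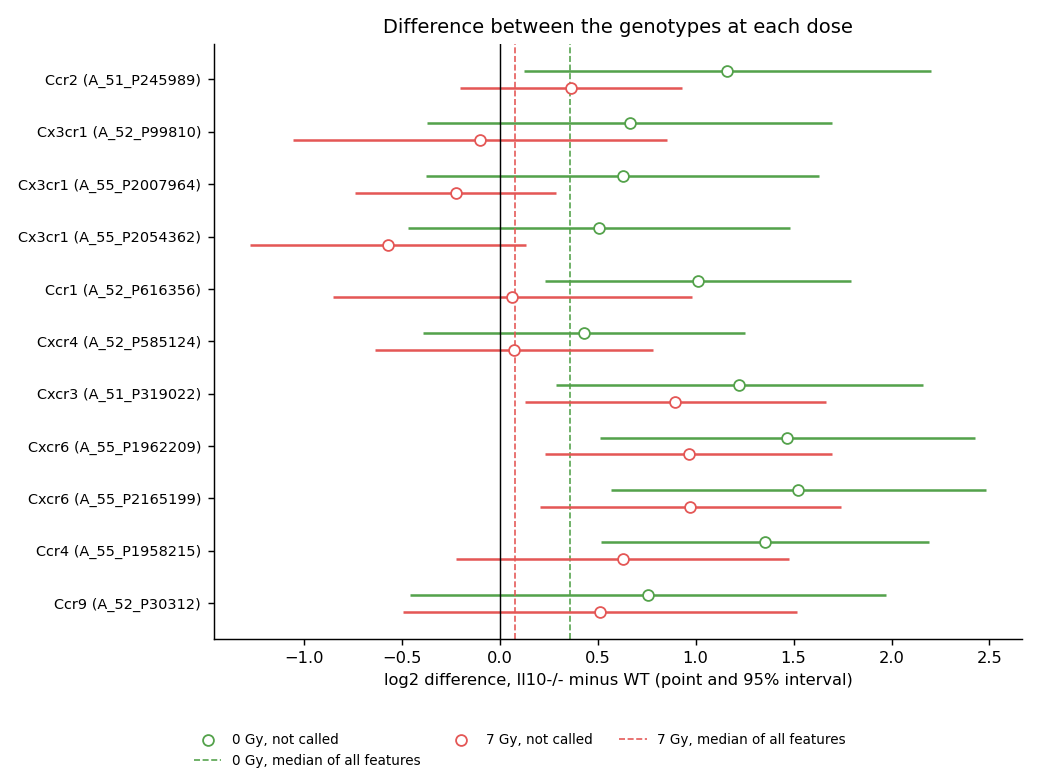
Difference between Il10-/- and WT mice on the log2 scale for the 11 receptor probes, with 95% intervals, at 0 Gy and at 7 Gy; open points were not called, and broken lines give the median of all features. All points at 0 Gy lie above 0, and those of *Cx3cr1* at 7 Gy lie below it.

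In whole blood, fewer cells of a type and less RNA per cell cannot be told apart, so marker lists of the cells that carry the receptors were read from the same arrays. Of 12 monocyte markers tested, 4 rose in WT mice after 7 Gy and 0 fell, with a list median of 1.32 beside −0.02 for all features. Among them were *Adgre1*, a macrophage surface receptor, at 2.77, *Cd14*, the LPS co-receptor, at 2.79, and *Fcgr4*, an Fc receptor, at 2.18. In Il10-/- mice 1 of 12, *Adgre1* at 1.66, rose, with a list median of 0.49. Over all features 4.48% were called higher in WT and 3.29% in Il10-/- mice. *Treml4* and *Ace* were the 2 of 12 monocyte markers below 0 in WT mice, at −0.54 and −0.89. They were at −1.34 and −0.75 in Il10-/- mice, where 3 of 12 were below 0, and were called in neither genotype. The summed level of the monocyte list ran from 612 to 1623 times the array median in unirradiated and from 1713 to 3267 in irradiated WT mice, and from 1197 to 2097 and from 1786 to 2918 in Il10-/- mice. The part of monocytes in the lower *Cx3cr1* and *Ccr2* was not tested.

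Of 14 T cell markers tested, 1 fell in each genotype, *Cd8a*, the CD8 co-receptor, at −3.03 in WT and −2.02 in Il10-/- mice. Over all features 2.32% were called lower in WT and 5.87% in Il10-/- mice. The list medians were −0.45 and −0.62, and the summed level ran from 487 to 1861 and from 577 to 1383 before and after irradiation of WT mice, and from 1589 to 1948 and from 836 to 1685 in Il10-/- mice. Of 11 NK cell markers none was called in either response, and the list medians were 0.34 and 0.08. In contrast, 9 of 10 B cell markers fell in each genotype, with list medians of −2.94 and −3.62 and summed levels that went from 523 to 1478 down to 88.8 to 166 in WT and from 472 to 1218 down to 67.0 to 92.3 in Il10-/- mice. B cells also carry *Cxcr4*. In irradiated Il10-/- mice the B cell genes *Fcer2a* and *Blk* were well above background on no array. The part of B cell loss in the lower *Cxcr4* was not tested. Of 4 plasmacytoid dendritic cell markers tested, 1 fell in each genotype, *Spib*, a transcription factor that B cells also carry, at −3.19 in WT and −3.93 in Il10-/- mice. *Siglech*, a surface lectin of these dendritic cells, was at −0.61 and −0.48, and *Runx2* at −1.39 and −0.15, neither called. *Cox6a2*, which heart muscle also carries, was at 2.92 and 4.24 and was not called. The heart muscle list had medians of 3.49 and 5.55 in the same responses. The part of heart muscle transcripts in the *Cox6a2* values was not tested. At baseline, 6 of 8 mature neutrophil markers were called higher in Il10-/- mice, where 0.845% of all features were called. The list median was 2.18 beside 0.36 for all features. Of the erythroid list 3 of 9 genes fell in each genotype and 1 rose in WT mice, and of 6 platelet genes none was called.

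Transcripts of liver and heart muscle, which blood cells do not carry in quantity, varied between arrays of a group and also moved with the groups compared. Of 12 liver genes tested, 7 were called higher after 7 Gy in WT mice, among them *Alb*, which encodes albumin, at 9.03 and *Hpx*, which encodes hemopexin, at 9.39. In the response of Il10-/- mice none was called by limma, with a lowest adjusted p of 0.489, and at baseline *Alb* and *Hpx* were called higher in Il10-/- mice. Of 6 heart muscle genes tested, 5 were called higher after 7 Gy in Il10-/- mice and none in WT mice. Their part in the receptor results was not tested beyond leaving arrays out. The summed level of 12 liver genes ran from 89.1 to 264 in unirradiated WT mice and from 219 to 65675 in irradiated ones, and from 164 to 20397 and from 101 to 20580 in Il10-/- mice. The sum of all 9 heart muscle genes on the array ran from 24.0 to 280 and from 64.7 to 6711 in WT mice. In Il10-/- mice it ran from 30.8 to 263 and from 89.0 to 5466. As 8 arrays had a liver sum over 5000, 3 in each irradiated group and 2 of unirradiated Il10-/- mice, the receptor calls were made again without them. In Il10-/- mice 3 unirradiated and 2 irradiated arrays were then left, one of them the noisy replicate 3. The unirradiated arrays left included the close replicates 1 and 2. The same 5 receptor probes were called there, with *Ccr2* at −1.82, *Cxcr4* at −2.38 and *Cx3cr1* probe A_55_P2007964 at −3.42. Of the irradiated arrays left, *Cxcr4* and A_55_P2007964 were well above background on replicate 5 but not on replicate 3. The other *Cx3cr1* probes were not well above background on either irradiated array left. In WT mice, with 5 unirradiated and 2 irradiated arrays left, *Cx3cr1* was at −1.99 to −2.24 and *Cxcr4* at −1.28, and no receptor probe was called. Without the 2 arrays with the noisiest repeated spots, the same counts were called as with all arrays, 4 in WT and 5 in Il10-/- mice.

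**Figure D4:**
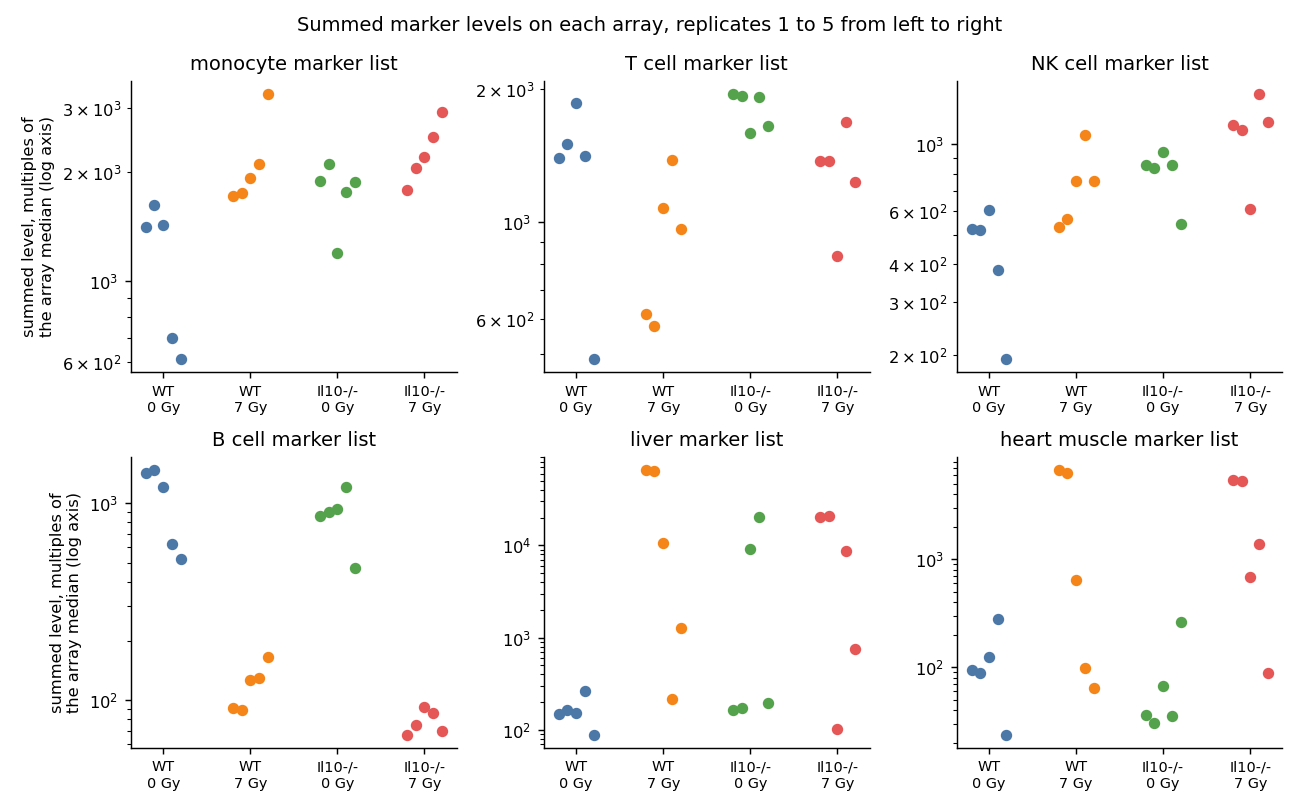
Summed level of 6 marker lists on every array, as multiples of the array median on a log axis, with replicates 1 to 5 from left to right in each group. B cell levels fall after 7 Gy in both genotypes while monocyte levels do not, and replicates 1 and 2 are nearly level in the liver and heart muscle lists of each group.

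Among other chemokine receptors, *Ccr6* fell further than any of the 8. Of 11 tested, 3 fell in WT and 4 in Il10-/- mice, and 0 rose, with list medians of 0.03 and 0.01. Over all features 2.32% were called lower in WT and 5.87% in Il10-/- mice. *Ccr6*, the receptor for CCL20, went from 4.81 ± 0.69 (SD, n = 5) to −0.54 ± 0.59 in WT and from 5.60 ± 0.43 to −0.10 ± 0.57 in Il10-/- mice, with differences of −5.35 and −5.70. It was well above background on 1 of 5 irradiated arrays of each genotype, so these differences are taken largely against background. *Ccr7*, which guides lymphocytes into lymph nodes, differed by −3.71 and −3.42, and *Cxcr5*, which guides B cells into follicles, by −2.77 and −2.88, all called. *Ackr1*, the chemokine-binding receptor of red cells and endothelium, was called lower only in Il10-/- mice at −1.50, and was −1.29 in WT mice, a difference between the genotypes that was not called.

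Among the ligands of the 8 receptors only rises were called. Of 12 tested, 3 rose in WT and 4 in Il10-/- mice, and 0 fell, with list medians of 1.04 and 1.02. Over all features 4.48% were called higher in WT and 3.29% in Il10-/- mice. *Ccl2*, the main ligand of CCR2, was well above background on 0 of 5 unirradiated and 4 of 5 irradiated WT arrays and was at least 2.66-fold higher after 7 Gy, with an adjusted p of 0.000906 in limma. In Il10-/- mice *Ccl2* was called at a difference of 1.22, but it was well above background on only 1 of 5 unirradiated and 2 of 5 irradiated arrays. *Ccl9* and *Ccl6*, ligands of CCR1, rose by 2.68 and 2.09 in WT and by 1.57 and 0.99 in Il10-/- mice. *Cxcl16*, the ligand of CXCR6, rose by 1.17 in Il10-/- mice, and was at 1.27 with a larger error in WT mice. *Cxcl12*, the ligand of CXCR4, ran from −0.76 to 5.60 on irradiated WT arrays and was not called. *Cx3cl1*, the ligand of CX3CR1, was well above background on no array of any group.

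Of 30 tested genes of receptor signaling and desensitization, 1 rose in each genotype and 1 fell in Il10-/- mice. Over all features 4.48% were called higher in WT mice, and 3.29% higher and 5.87% lower in Il10-/- mice. Counts of 1 in 30 are near or below these shares. *Rgs18*, a regulator of G protein signaling found in platelets and myeloid cells, rose by 1.74 in WT and by 1.51 in Il10-/- mice. *Adrbk2*, a kinase that turns off activated G protein-coupled receptors, fell by 1.67 in Il10-/- mice, from 1.53 ± 0.48 to −0.15 ± 0.47 (SD, n = 5). It was well above background on only 1 of 5 irradiated Il10-/- arrays. In WT mice *Adrbk2* was at −1.27 and was not called, so its fall is not shown to be particular to Il10-/- mice. The list medians were 0.06 and −0.15, beside −0.02 and −0.10 for all features. No gene of these 3 lists was called between the genotypes at either dose or in the interaction, by limma.

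**Figure D5:**
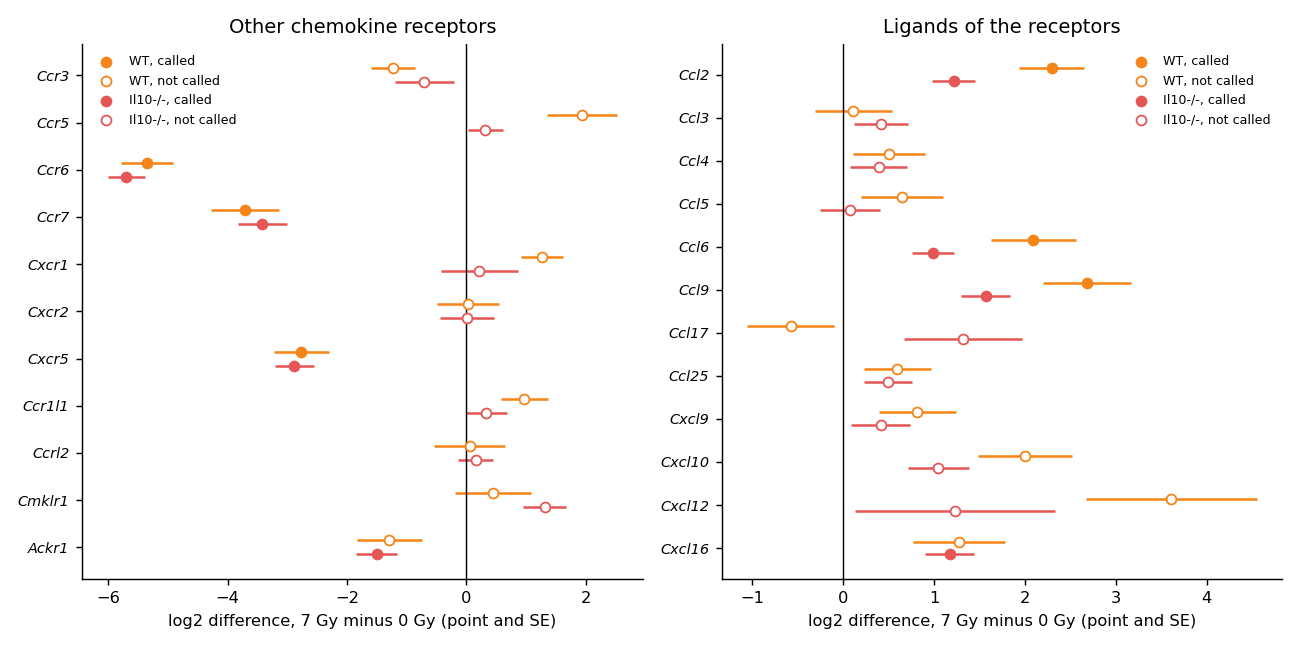
Difference between 7 Gy and 0 Gy on the log2 scale, with its SE, for the other chemokine receptors and for the ligands of the 8 receptors that were tested, in both genotypes; filled points were called. *Ccr6*, *Ccr7* and *Cxcr5* lie far below 0 and *Ccl2*, *Ccl6* and *Ccl9* above it in both genotypes.

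As a description of which genes varied most like each receptor, the root mean square difference of mean-centred log2 signals over the 20 arrays was taken against 15748 genes. *Cxcr3* had the closest partners of the 8, the chemokine gene *Xcl1* at 0.192 and *Tnfsf10*, which encodes TRAIL, at 0.211, where the median gene stood at 0.979. *Cxcr6* was closest to *Chsy1*, at 0.245, and *Cxcr4* to *Traf3ip3* and *Cd22*, at 0.279 and 0.307. *Cx3cr1* was closest to a transcript listed as ENSMUST00000010286 and to *B3gnt8*, both at 0.393, *Ccr2* to *Ralgapa1* and *Mfsd7b*, at 0.336 and 0.349, and *Ccr9* to *Il27ra* and *Mcm5*, at 0.351 and 0.392. The dimmer *Ccr1* and *Ccr4* had no partner closer than *Gng12* at 0.408 and *Trem3* at 0.531. All these genes share the same 20 arrays, and with them the spread between the arrays.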

How the data were processed

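Blood RNA of 20 samples was measured, 1 per array. The authors deposited Agilent Feature Extraction text files, in which each spot has a background-subtracted intensity; the labels name version 10.7 of that software and the file headers 12.0.2.2. A series table that the authors deposited holds log2 values, in which each array is scaled to 1 reference array and which covers 11 receptor probes; it served as an alternative. Intensities were converted to log2, outlier spots were left out, repeated spots averaged and the array median over 39429 probes subtracted. Probes marked on 25% or more of arrays were removed, as were those that differed 1.5-fold or more from their median on fewer than 20% of arrays, so that 18587 features of 15749 genes remained. Fits were made in R 4.3.3 with limma 3.58.1, on the 10 arrays of each comparison and on all 20 for the interaction, and the steps were tested on simulated data. Precision is limited by 5 arrays per group. Brightest probes stand for genes of lists, and summed levels cover every gene of a list on the array, tested or not.

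The members, lists and tests were chosen with earlier results of these data known. Named genes are the members, *Il10*, list genes that were called, markers at background in a group, and the 2 genes most like each member; *Treml4*, *Ace*, *Siglech*, *Cox6a2*, *Cxcl12* and the monocyte and T cell markers were named after their values were seen. The alternatives were 3 other scalings, normexp correction, the deposited table, no filters, another threshold, 1 fit of all groups, slides as a block and each array left out; 3 more were added after seeing the data. The value of 1 called monocyte marker is not reported here.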

Additional observations from a re-analysis of the deposited data

Results flagged for a closer look

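In 48 groups of 5 receptor values, 4 held an array far from the other 4, by Dixon's test at the 95% level, and chance gives about 1 in 20. *Ccr2* was 4.64 on replicate 3 of unirradiated Il10-/- mice, where the nearest array was at 5.66. *Cxcr6* probe A_55_P2165199 was 5.94 on that same array, with the nearest at 6.49. *Ccr4* was 0.20 on replicate 4 of irradiated WT mice, above a group median of −1.28, with no array of the group well above background. The untested *Ccr9* probe A_55_P2308239 was −1.48 on replicate 4 of unirradiated Il10-/- mice, with the nearest at −2.52.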

How the results depend on the processing

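The number of receptor probes called stayed at 0 between the genotypes at either dose and in the interaction under every alternative run. In the response of WT mice the count of 4 was 0 with normexp correction, 1 with replicates 1 and 2 averaged as 1 array, 0 without the 8 arrays rich in liver transcripts, 3 with no filter on marked probes, where *Cxcr4* had an adjusted p of 0.0271, and 2 to 4 with 1 array left out. The counts of 2 came without unirradiated WT replicate 1 or 2, where *Cx3cr1* probe A_55_P2007964 and *Cxcr4* were lost. In the response of Il10-/- mice the count of 5 was 0 with normexp correction. It was 7 with a false discovery rate under 5% alone, which adds *Ccr4* and *Ccr9*. With no fold filter it was 6, which adds *Ccr4* at an adjusted p of 0.0122 in limma. It was 4 with all 4 groups in 1 fit, where *Ccr2* had an adjusted p of 0.0318 in limma. With replicates 1 and 2 averaged as 1 array it was also 4, with *Ccr2* at 0.0319. With 1 array left out it was 5 to 6. Normexp correction left array medians of 65.9 to 796 and called 0 of all features in Il10-/- mice. In WT mice it still called 257 features higher and 4 lower. There the *Cx3cr1* differences were −1.04 to −0.57 and that of *Cxcr4* was −0.38. The cause of its loss of receptor calls was not tested. No called difference changed its sign under any alternative.

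Replicate numbers mark slides, but the deviations of same-numbered arrays correlated by −0.66 to 0.68. Between the WT groups these correlations were 0.06 to 0.32, and between the irradiated groups they averaged 0.41. In no pair of groups were all above 0.1, so slides were not taken to pair the samples in the main tests. With the slide as a block, 3 probes were called in WT and 5 in Il10-/- mice, and *Cxcr4* in WT mice was lost at an adjusted p of 0.017 in limma. Signals near background (*Ccr1*, *Ccr4* and the second *Ccr9* probe) limit what can be read from those genes.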
